A study of Callithrix jacchus with 54 samples.

Results

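Primordial germ cell-like cells of the common marmoset (cjPGCLCs) were compared at 96 h and at day 6 of induction under the same culture condition. There were 2 libraries at each time, 4 of the 54 libraries of the series. The members were the libraries whose labels give the culture with BMP4, LIF, SCF, EGF and the Rock inhibitor plus the WNT inhibitor IWR1 (BLSE + IWR1), no further inhibitor, and a time of 96 h or 6 days. Both groups came from CMES40, an embryonic stem cell (cjESC) line that carries the reporters BLIMP1-tdTomato and NANOS3-eGFP and has an otherwise wild type genotype, without the inducible transgenes of other samples in the series. In both groups the cjESCs were kept in PESFA medium, were pre-induced with the WNT agonist IM12 and activin A, were aggregated in BLSE + IWR1, and were sorted for tdTomato. The only labelled difference was the time. All 4 libraries derive from 1 reporter line, the study calls its libraries biological duplicates, and nothing says whether the 96 h and the day 6 cells came from the same inductions. The p-values below rest on a spread between replicate libraries pooled over all 54 libraries, transgenic and unsorted samples among them. They do not measure a spread between animals. The day 6 cells are of interest because cells of that age were put together with mouse gonadal somatic cells to form xrOvaries, from which libraries of day 20, day 40 and day 70 were made.

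Primordial germ cells are the embryonic founders of sperm and eggs. In primates they arise around the time of gastrulation under BMP signalling, and SOX17, TFAP2C and BLIMP1 (the product of PRDM1) form the core of their transcription factor network, next to pluripotency factors such as POU5F1 and NANOG that they keep. NANOS3, an RNA-binding protein, protects migrating germ cells, and late genes such as DDX4 and DAZL follow when the cells reach the gonad. In culture the same sequence is asked of pluripotent cells, in which mesodermal, amniotic or endodermal genes may be active for a time.

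The sort used the BLIMP1 reporter, so the level of PRDM1 in sorted cells is set by the gate and was not treated as a result. The labels name tdTomato alone, while the paper describes the cells of both times as positive for both reporters. The knock-ins were made with designed guide RNAs, and the forward oligonucleotides that encode them are shown because these loci carry the colours by which the cells were chosen; capitals mark the guide insert and lower case marks the cloning overhang, 5′ to 3′.
BLIMP1: caccGCAGATCTGATGACTCGTAA
NANOS3: caccGCCAGCTTGAGCTCGATCCCT
The inserts are 20 and 21 bases long.

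Expression was read as TPM, an abundance scaled for transcript length and library, for 14812 genes that marmoset and human share. A gene was tested if log2(TPM + 1) reached 1.5 in at least 1 of the 54 libraries, which kept 11197 genes. Depth is not known from TPM. The TPM of a library summed to between 790300 and 839203, and between 10146 and 12688 genes were above 0. Replicates correlated with r = 0.986 at 96 h and r = 0.992 at day 6 over the tested genes, and no 2 libraries of the series held the same values. The label of germ cell-like cells was checked on SOX17, TFAP2C and NANOS3, which were at 146 TPM or more in all 4 libraries, while SOX2, a marker of cjESCs that primate germ cells lack, stood at 0 to 1.21 TPM. NANOS3 is no independent check if the gate also used its reporter, as the paper's description of these cells would have it.

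The question was which genes changed while the cells stayed in BLSE + IWR1 for the last days before transfer. The change was small. Genes were called differentially expressed (DEGs) when they changed more than 4-fold, when their mean log2(TPM + 1) exceeded 1.5 and when limma gave a p below 0.01 after Benjamini-Hochberg adjustment over the 11197 genes. By this rule 1 gene was higher at day 6, which is 0.00893% of the genes tested, and 17 were lower, which is 0.152%. At an adjusted p under 0.05 without a limit on fold, 228 genes were higher (2.04%) and 426 were lower (3.8%). Such genes are called risen or fallen in what follows, and counts of list members are to be read against these 2 shares. Of the 228 and 426 genes, 63 rose and 123 fell by more than 2-fold. The counts rested on each of the 4 libraries: 147 genes were higher and 419 lower without 96 h replicate 1, 106 and 155 without 96 h replicate 2, 73 and 182 without day 6 replicate 1, and 84 and 201 without day 6 replicate 2. The median log2 fold change of all tested genes was -0.03, and its standard error in a typical gene was 0.24. The mean of 2 libraries in each of 27 conditions was fitted together, so that the spread came from all 54 libraries with 27 residual degrees of freedom. When limma was given the 4 libraries alone, no gene passed at an adjusted p under 0.05 in either direction, although 1946 genes had an unadjusted p under 0.05, against 2058 in the fit of all libraries. Every call below therefore rests on the assumption that these 4 libraries vary like the rest of the series. An exact permutation test of 2 against 2 libraries cannot give a p below 0.333. The balance of the calls depended on the scaling, since 34.9% of called genes were higher at day 6 with TPM as deposited, 48.3% after median-ratio scaling (297 higher, 318 lower) and 47.7% after quantile normalization (346 higher, 380 lower).

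**Figure D1:**
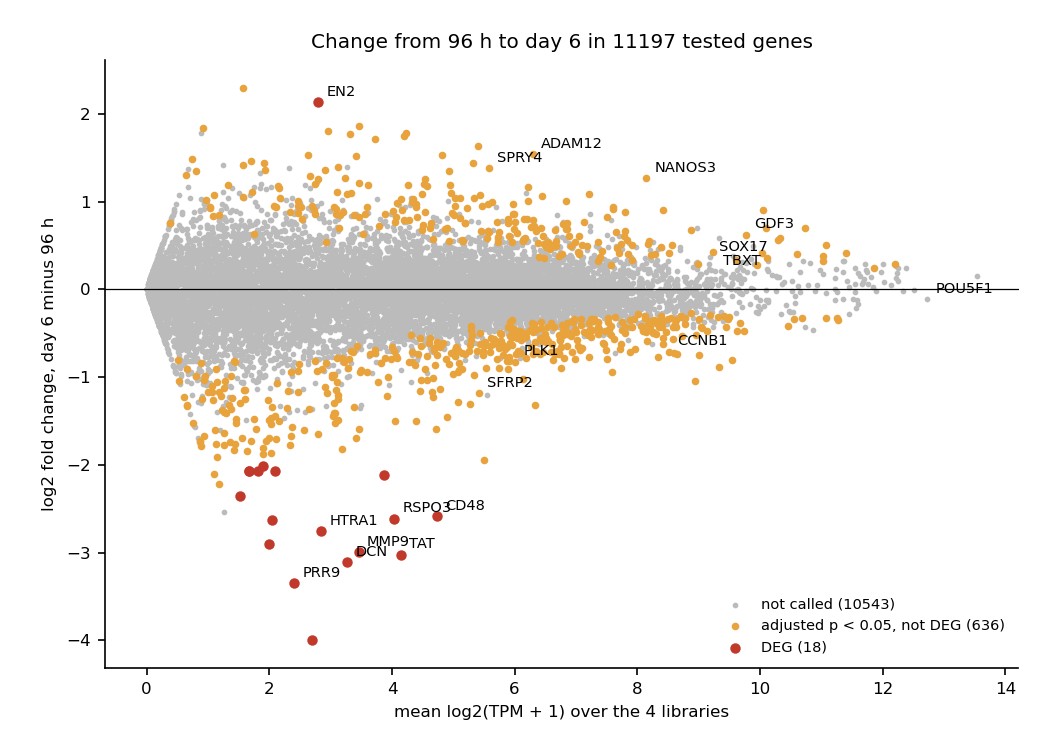
Each point is 1 of 11197 tested genes, with its mean log2(TPM + 1) over the 4 libraries on the x axis and its log2 fold change, day 6 minus 96 h, on the y axis. The 18 DEGs (red) comprise 17 genes below 0 and EN2 above 0, while genes of high level such as POU5F1, SOX17 and TBXT lie near 0.

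For scale, the same DEG rule was applied to the neighbouring steps of the route. Between 48 h and 96 h 503 genes were DEGs (214 higher and 289 lower at 96 h), and between day 6 and day 20 in the xrOvary 257 were (67 higher and 190 lower at day 20), or 4.49% and 2.3% of the genes tested against 18 genes between 96 h and day 6. The 48 h aggregates were not sorted and the day 20 cells had grown with mouse cells, so in these steps time cannot be told apart from the sort and from the host tissue. The steps share libraries with the comparison of 96 h and day 6, and the differences between the counts were not tested.

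The only DEG that rose was EN2, which encodes a homeobox protein known from the midbrain-hindbrain region. EN2 stood at 1.32 and 3.78 TPM at 96 h and at 12.4 and 14.8 TPM at day 6, with no overlap. The log2 fold change was 2.13 ± 0.38 (SE, adjusted p = 0.000326, limma), and it stayed called without any one of the 4 libraries. With a pseudocount of 0.1 in place of 1 the adjusted p was 0.127, and EN2 also missed the DEG rule without 96 h replicate 1, without day 6 replicate 2 and in the fit of the sorted libraries (adjusted p = 0.0329). EN2 was listed at 0 in cjESCs and in the 48 h aggregates, and at 0.8 and 0 TPM at day 20. In cells sorted at 96 h from a parallel induction with the retinoic acid receptor inverse agonist BMS493 added, EN2 was at 27 and 13.5 TPM, of which the first lies above both day 6 libraries and the second between them.

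Among the 17 fallen DEGs, several encode secreted or extracellular matrix proteins. DCN, the small matrix proteoglycan decorin, stood at 26.2 and 28.6 TPM at 96 h and at 1.52 and 3.27 TPM at day 6 (log2 fold change -3.11 ± 0.44, adjusted p = 1.95e-05, limma). HTRA1, a secreted serine protease, went from 15.8 and 19.7 TPM to 2.68 and 1.06 TPM (-2.76 ± 0.23, adjusted p = 1.82e-10). MMP9, a matrix metalloproteinase that cleaves type IV collagen, was at 24.8 and 36.3 TPM and then at 3.49 and 2.37 TPM (-3.00 ± 0.37, adjusted p = 1.93e-06). In each of these genes the lower 96 h library was above the higher day 6 library by several fold. HAS2, which makes hyaluronan, fell from 4.45 and 6.69 TPM to 0.11 and 0.45 TPM (-2.35 ± 0.37, adjusted p = 9.04e-05), and ANGPTL2, a secreted angiopoietin-like protein, fell by 2.07 on the log2 scale to under 1 TPM in both day 6 libraries.

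A second set of fallen DEGs codes for proteins best known from other organs. TAT, the tyrosine aminotransferase of liver, was near 49.5 TPM in both 96 h libraries and at 4.02 and 6.66 TPM at day 6 (-3.02 ± 0.38, adjusted p = 2.13e-06, limma). GC, the vitamin D binding protein of plasma, was at 21.4 and 40.6 TPM and then at 6.94 and 5.21 TPM (-2.12 ± 0.47, adjusted p = 0.00353). The GC call ended without 96 h replicate 2 or day 6 replicate 2, with adjusted p of up to 0.122, and with a pseudocount of 0.1 (adjusted p = 0.105). LOC100391685, whose RefSeq synonym is CGB, the beta subunit of chorionic gonadotropin made by trophoblast, had the largest decrease of the 17, from 34.4 and 18.1 TPM to 1.65 and 0 TPM (-4.00 ± 0.72, adjusted p = 0.000405). PRR9, a proline-rich protein, fell from 17.3 and 14.5 TPM to 0.79 and 0.54 TPM (-3.35 ± 0.52, adjusted p = 5.93e-05). CALB2, the calcium-binding protein calretinin, went from 10.04 and 8.65 TPM to 0.66 and 0.67 TPM. LOC100391685 and CCL15 belong to families of near-identical genes, so reads may have been shared among copies.

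The others act at the cell surface or in signalling. CD48, an immune cell surface protein of the SLAM family, was at 65.9 and 62.6 TPM at 96 h and at 13.4 and 7.15 TPM at day 6 (-2.59 ± 0.21, adjusted p = 1.82e-10, limma). RSPO3, a secreted amplifier of WNT signals, went from 35.9 and 43.8 TPM to 7.12 and 4.42 TPM (-2.61 ± 0.37, adjusted p = 2.1e-05). CCL15 is a chemokine, PLVAP a protein of endothelial diaphragms, GNG11 a G protein gamma subunit, ANKRD1 a nuclear cofactor induced by the YAP pathway, and SH3BP4 an adaptor of endocytosis; their log2 fold changes were -2.90, -2.08, -2.01, -2.07 and -2.07. The calls of CCL15, GNG11 and ANKRD1 ended when 1 library was left out: for CCL15 96 h replicate 1 or day 6 replicate 1 (adjusted p up to 0.173), for GNG11 day 6 replicate 2 (0.0907), and for ANKRD1 96 h replicate 2 (0.0511). The other fallen DEGs apart from GC, CCL15, GNG11 and ANKRD1 stayed called at an adjusted p under 0.05 without any one of the 4 libraries.

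**Figure D2:**
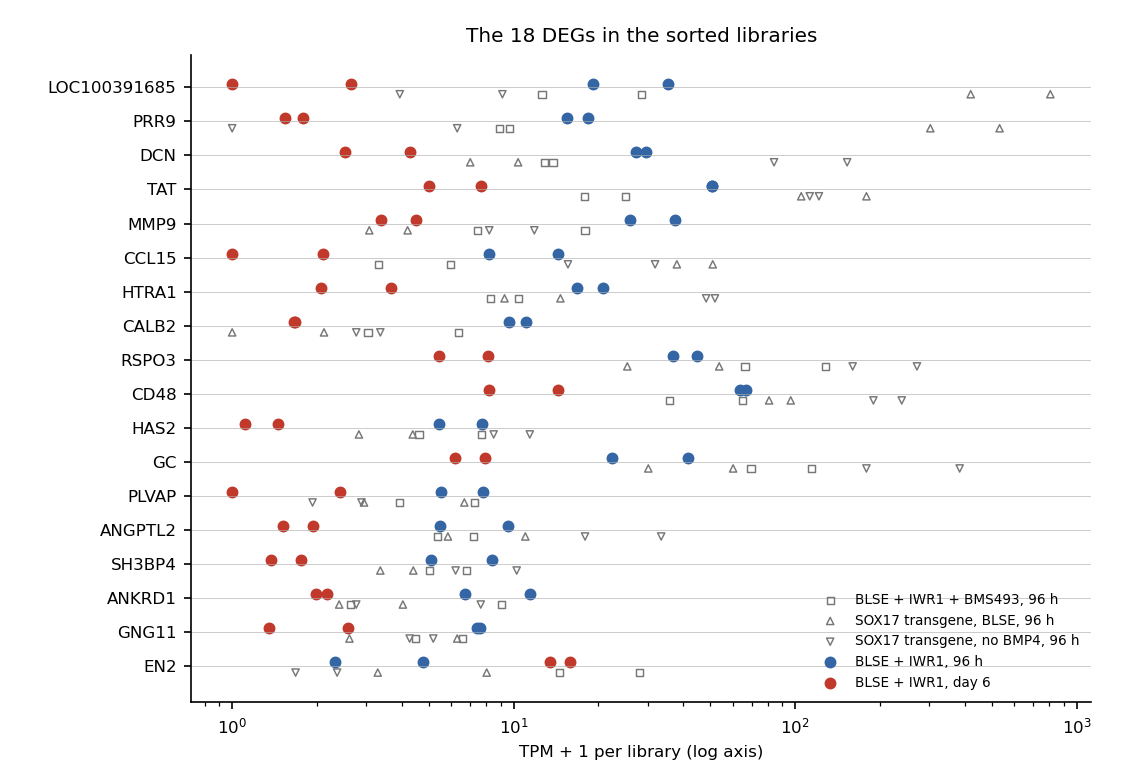
TPM + 1 in single libraries (log axis) for the 18 DEGs, with BLSE + IWR1 at 96 h in blue, at day 6 in red, and the 3 other tdTomato-sorted 96 h conditions as open symbols, 2 libraries each. EN2 alone is higher at day 6, and red and blue points do not overlap in any of the 18 genes. The choice of called genes all but fixes this, since 227 of the 228 risen and 426 of the 426 fallen genes did not overlap either.

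Only EN2 met the DEG rule upwards, so the 10 named genes with the largest increases among the 228 were also read; this choice was made after their values were seen. After EN2 these were VSTM2L, UBL7, PARP10, EVX1, INSM1, NTF3, FERMT1, FOXF2 and ADAM12, with log2 fold changes from 1.54 to 1.86. ADAM12, a membrane-bound metalloproteinase, stood at 41.6 and 49.0 TPM at 96 h and at 143 and 125 TPM at day 6 (1.54 ± 0.20, adjusted p = 2.83e-06, limma). FERMT1, the integrin activator kindlin-1, rose from 5.23 and 7.64 TPM to 19.9 and 26.6 TPM (1.71 ± 0.25, adjusted p = 2.49e-05). INSM1, a zinc finger factor of neuroendocrine cells, rose from 4.11 and 4.7 TPM to 15.3 and 19.8 TPM (1.77 ± 0.27, adjusted p = 5.8e-05), but not with a pseudocount of 0.1 (adjusted p = 0.0624). In these 3 genes the day 6 libraries lay close together and well above those of 96 h. FOXF2, a forkhead factor of mesenchyme, rose from 15.4 and 34.4 TPM to 65.0 and 82.9 TPM (1.63 ± 0.36, adjusted p = 0.00383). The neurotrophin gene NTF3 went from 5.83 and 13.5 TPM to 31.2 and 33.8 TPM. Its call and that of FOXF2 ended without 96 h replicate 1 or day 6 replicate 2 (NTF3 also without day 6 replicate 1), with adjusted p of up to 0.242 and 0.134, and neither passed in the fit of the sorted libraries (0.148 and 0.0913). UBL7 was listed at 0 in both 96 h libraries and was at 4.2 and 1.44 TPM at day 6, and its call ended without day 6 replicate 1 (adjusted p = 0.195); that of VSTM2L ended without 96 h replicate 2 (0.0565).

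Of the early germ cell genes, 13 were tested, and NANOS3 rose while none fell. NANOS3 stood at 146 and 225 TPM at 96 h and at 394 and 487 TPM at day 6. The day 6 libraries were above the 96 h libraries, with a log2 fold change of 1.27 ± 0.29 (adjusted p = 0.00596, limma). The call ended without 96 h replicate 1 or day 6 replicate 2, with adjusted p of up to 0.112 and a log2 fold change of at least 0.96. SOX17 was at 474 and 555 TPM and then at 617 and 708 TPM, and its change of 0.36 (95% interval -0.22 to 0.95) did not pass. TFAP2C, at 771 and 859 TPM and then 770 and 829 TPM, had an interval of -0.40 to 0.35, so that a change of 1.5-fold in either direction was outside it. PDPN, the surface protein podoplanin, was at 847 and 877 TPM and then at 1064 and 1037 TPM (0.29, adjusted p = 0.235). TCL1A, a kinase co-activator of early germ cells, was at 41.5 and 36.2 TPM and then at 63.7 and 61.7 TPM (0.68, adjusted p = 0.406). In the fit of the sorted libraries PDPN and TCL1A passed as well (adjusted p = 0.0296 and 0.028). The median log2 fold change over the 13 genes was 0.29, against -0.03 over all tested genes. Of 31 genes by which the series describes these cells NANOS3 alone passed (2 genes in the fit of the sorted libraries), with log2 fold changes of the list from -0.46 to 1.27. NANOS3 carries the second reporter and was not part of the sort as labelled, but the paper describes these cells as positive for both reporters. Whether the gate set part of the NANOS3 level was not tested.

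Of the pluripotency genes, POU5F1 was at 7085 and 6996 TPM at 96 h and at 6448 and 6598 TPM at day 6, with an interval of -0.31 to 0.09 on the log2 scale. NANOG was at 795 and 691 TPM and then at 900 and 874 TPM (interval -0.09 to 0.61). Of 12 tested genes of this list 1 rose and 0 fell, and log2 fold changes ranged from -0.69 to 0.62. Both day 6 libraries were above both 96 h libraries in 6 of the 12, against 20.9% of all genes tested, and below both in 2. The gene that rose was GDF3, a TGF-beta family ligand of pluripotent cells, from 801 and 614 TPM to 1058 and 1102 TPM (0.62 ± 0.14, adjusted p = 0.0036, limma), a call that ended without 96 h replicate 2 or day 6 replicate 2 (adjusted p up to 0.18). Among 10 genes of naive pluripotency SUSD2, a surface protein, rose from 22.1 and 24.0 TPM to 50.7 and 46.2 TPM (1.04 ± 0.25, adjusted p = 0.00928), and this call ended whichever library was left out (adjusted p 0.0515 to 0.111). TFCP2L1, a transcription factor of the naive state, was at 19.3 and 21.1 TPM and then at 47.4 and 36.3 TPM, and passed in the fit of the sorted libraries (adjusted p = 0.00548) but not in that of all libraries (0.137).

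None of the 10 tested late germ cell genes and none of the 10 tested meiotic genes rose or fell, and DDX4 was listed at 0 in all 4 libraries. DAZL was at 0.12 TPM in 1 library of 96 h and listed at 0 in the others. The late genes of highest level were DMRT1, a transcription factor of the gonad, at 5.77 and 4.8 TPM and then 5.4 and 5.95 TPM, and SPATA22, a meiotic recombination gene, at 2.74 and 4.7 TPM and then 1.38 and 3.27 TPM. Of 13 tested genes of the piRNA pathway, which silences transposons in germ cells, MOV10L1, an RNA helicase, rose from 3.65 and 1.97 TPM to 5.65 and 6.03 TPM (0.88 ± 0.26, adjusted p = 0.0398, limma). Its call held only when 96 h replicate 1 was the library left out, and reached an adjusted p of 0.499 otherwise.

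Of the mesodermal genes, TBXT, the T-box factor brachyury, was at 504 and 647 TPM at 96 h and at 607 and 714 TPM at day 6 (0.20, interval -0.52 to 0.93). HAND1, a factor of extraembryonic and lateral mesoderm, was at 40.0 and 64.2 TPM and then at 38.1 and 66.5 TPM (interval -0.65 to 0.63), far under the 1176 and 1186 TPM of the unsorted 48 h aggregates, and at 0 and 1.26 TPM at day 20. Of 21 tested mesoderm and primitive streak genes, EVX1, a homeobox gene of the posterior streak, rose and none fell. Over all genes tested 2.04% rose and 3.8% fell, and so small a count is not read as a result about the list. EVX1 stood at 6.03 and 13.5 TPM and then at 28.1 and 40.3 TPM (1.78 ± 0.32, adjusted p = 0.000448, limma), and the call held without any one of the 4 libraries. None of the 26 tested HOX genes passed. Of 14 genes associated with amnion, HEY1, a Notch target, rose from 20.2 and 24.8 TPM to 34.7 and 50.2 TPM (0.87, adjusted p = 0.0034, ended without 96 h replicate 1 or day 6 replicate 2, adjusted p up to 0.161) and VTCN1, an immune checkpoint ligand, fell from 8.36 and 4.48 TPM to 0.49 and 1.57 TPM (-1.87, adjusted p = 0.000635, ended without day 6 replicate 1, adjusted p = 0.0533).

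**Figure D3:**
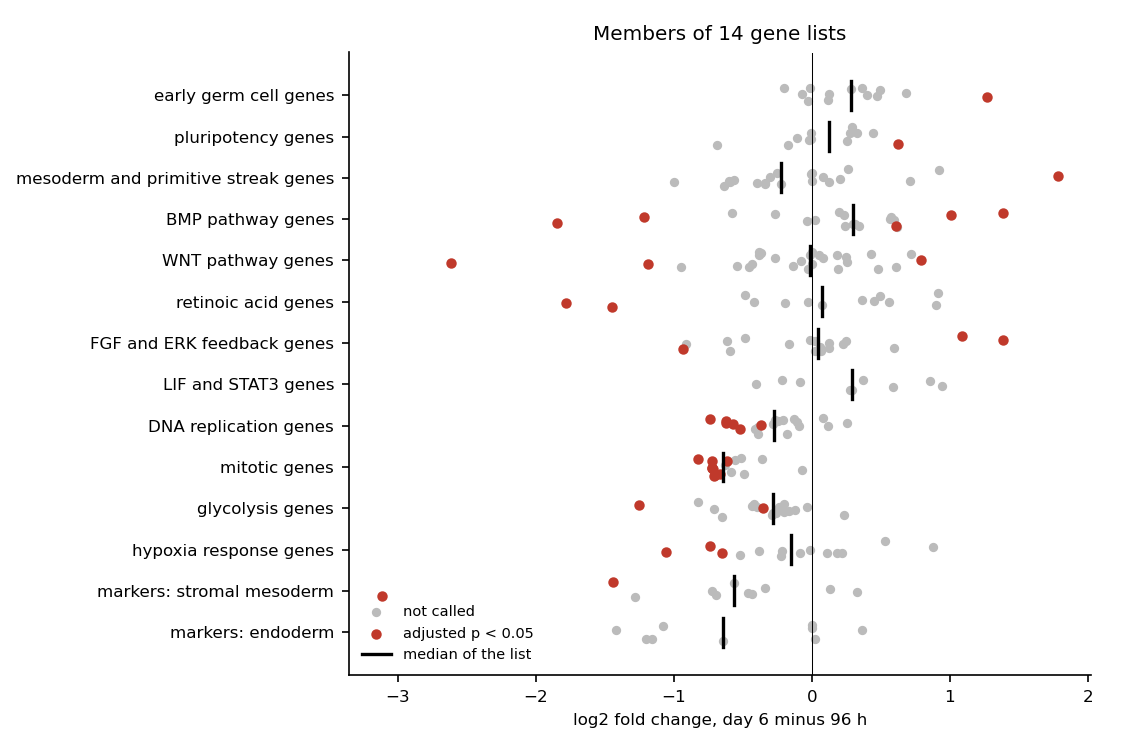
Log2 fold change, day 6 minus 96 h, of each tested member of 14 gene lists (points, jittered vertically), with members at an adjusted p under 0.05 in red and the list's median as a bar. The 16 mitotic genes all lie at or below 0 with a median of -0.65, and the germ cell list lies mostly above 0 with NANOS3 at its right end.

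BMP4 was in the medium throughout, and calls on BMP pathway genes went in both directions while the list leaned upwards. Of 19 tested genes 3 rose and 2 fell, against 2.04% and 3.8% of all genes tested. The median log2 fold change was 0.30, with 14 members positive and 5 negative. Both day 6 libraries were above both 96 h libraries in 11 of the 19 and below both in 3, against 20.9% and 27% of all genes tested. Inhibitory SMADs, which are transcribed in response to BMP and damp its signal, were higher: SMAD6 went from 39.6 and 66.8 TPM to 104 and 106 TPM (1.01 ± 0.21, adjusted p = 0.00183, limma) and SMAD7 from 43.6 and 52.1 TPM to 66.7 and 80.7 TPM (0.61 ± 0.17, adjusted p = 0.0217). DLX3, a homeobox target of BMP, rose from 3.48 and 5.51 TPM to 10.3 and 16.6 TPM (1.39, adjusted p = 0.0317). Its paralogue DLX5 fell from 6.54 and 3.58 TPM to 0.63 and 0.64 TPM (-1.85 ± 0.31, adjusted p = 0.000219), and the ligand BMP2 fell from 1.09 and 4.92 TPM to 0.4 and 0.64 TPM (-1.21, adjusted p = 0.0497). ID1, the most direct target, was at 762 and 874 TPM and then at 955 and 1126 TPM (0.35, adjusted p = 0.31). Without 96 h replicate 1 the calls of SMAD6 (adjusted p = 0.107), SMAD7 and DLX3 ended. SMAD7 also lost its call without day 6 replicate 2, DLX3 whichever library was left out and BMP2 when any library other than 96 h replicate 1 was left out, and the highest adjusted p of these 3 genes was 0.262, 0.316 and 0.758. In the fit of the sorted libraries the adjusted p was 0.0503 for SMAD6, 0.101 for SMAD7, 0.215 for DLX3 and 0.197 for BMP2, and DLX5 stayed called.

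WNT signalling was inhibited by IWR1 at both times. Of 27 tested WNT pathway genes 1 rose and 2 fell, against 2.04% and 3.8% of all genes tested. The median was -0.02. Besides RSPO3, described above, SFRP2, a secreted WNT antagonist that is high in cjESCs, fell from 58.5 and 68.8 TPM to 25.3 and 29.6 TPM (-1.18 ± 0.17, adjusted p = 1.95e-05, limma), and both calls held without any one library. NOTUM, a secreted enzyme that inactivates WNT ligands, rose from 49.6 and 69.8 TPM to 94.4 and 111 TPM (0.79 ± 0.24, adjusted p = 0.0448), a call that ended whichever library was left out (adjusted p up to 0.316). In the fit of the sorted libraries NOTUM did not pass (adjusted p = 0.063), and RNF43, another gene of the list, rose. AXIN2 and LEF1, which report active WNT signalling, were at or under 3.17 TPM in all 4 libraries. These 2 genes do not show the activity of the whole pathway, which was not tested.

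Among 13 tested retinoic acid genes 2 fell and 0 rose, against 3.8% and 2.04% of all genes tested. The median of the list was 0.07, with 7 members positive and 6 negative. Both day 6 libraries were above both 96 h libraries in 7 of the 13 and below both in 4, against 20.9% and 27% of all genes tested. CYP26A1, which degrades retinoic acid, was at 5.06 and 0.95 TPM at 96 h and listed at 0 in both day 6 libraries (adjusted p = 0.00338, limma, and 0.188 without 96 h replicate 1). CRABP2, which carries retinoic acid to its receptor, went from 54.7 and 43.1 TPM to 13.1 and 22.2 TPM (-1.45 ± 0.36, adjusted p = 0.00994), a call that ended without 96 h replicate 1 or day 6 replicate 1 (adjusted p up to 0.233). In the fit of the sorted libraries neither passed, with adjusted p of 0.0806 and 0.131.

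Of 18 tested genes of the FGF and ERK pathway, many of them feedback inhibitors induced by its activity, 2 rose and 1 fell. Of all genes tested 2.04% rose and 3.8% fell. The median of the list was 0.04. SPRY4 rose from 26.5 and 30.8 TPM to 73.6 and 78.8 TPM (1.38 ± 0.26, adjusted p = 0.000674, limma) and stayed called without any one library. DUSP5, an ERK phosphatase, rose from 83.1 and 121 TPM to 199 and 232 TPM (1.09 ± 0.23, adjusted p = 0.00274), which ended without 96 h replicate 1 or day 6 replicate 2 (adjusted p up to 0.0786). ERBB2, a receptor of the EGF family, fell from 6.44 and 10.9 TPM to 3.59 and 4.33 TPM (-0.93, adjusted p = 0.00958), which ended without 96 h replicate 2 or day 6 replicate 1 (adjusted p up to 0.315) and in the fit of the sorted libraries (0.191). The other feedback genes did not pass, DUSP6 being at 2.54 and 4.05 TPM and then at 1.65 and 0.9 TPM (-0.91, adjusted p = 0.12). None of the 9 LIF and STAT3 genes passed, with a median of 0.29.

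Genes of cell division were lower at day 6 as a group. Of 16 tested mitotic genes 9 fell and 0 rose, against 3.8% and 2.04% of all genes tested. The median log2 fold change was -0.65. In 14 of the 16 both day 6 libraries were below both 96 h libraries, against 27% of all genes tested. CCNB1, cyclin B1, stood at 457 and 476 TPM at 96 h and at 298 and 272 TPM at day 6 (-0.71 ± 0.14, adjusted p = 0.00154, limma). PLK1, a mitotic kinase, was at 76.7 and 93.6 TPM and then at 52.7 and 42.7 TPM (-0.82 ± 0.14, adjusted p = 0.000146). CDC20, an activator of the anaphase-promoting complex, was at 298 and 304 TPM and then at 205 and 162 TPM (-0.72 ± 0.14, adjusted p = 0.00125). The day 6 mean of CCNB1, PLK1 and CDC20 was 0.61, 0.56 and 0.61 of the 96 h mean. The other fallen members were AURKA, AURKB, BUB1B, KIF20A, CCNB2 and TPX2, with log2 fold changes from -0.72 to -0.61. Calls on CCNB1 and PLK1 held without any one library. CDC20 and AURKA lost theirs without day 6 replicate 2 (adjusted p 0.0758 and 0.158), KIF20A without 96 h replicate 2 (0.0566), AURKB without either of these 2 (up to 0.123), TPX2 when any library other than day 6 replicate 1 was left out (up to 0.276), and CCNB2 and BUB1B whichever of the 4 was left out (up to 0.195 and 0.234). The count of 9 was unchanged under median-ratio scaling and quantile normalization and was 12 in the fit of the sorted libraries, so the direction of the list did not depend on the scaling.

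DNA replication genes showed a smaller shift. Of 20 tested genes 6 fell, against 3.8% of all genes tested, and 0 rose. The median was -0.27, against -0.03 over all tested genes, and 17 of the 20 had a negative log2 fold change. In 14 of the 20 both day 6 libraries were below both 96 h libraries, against 27% of all genes tested. In the fit of the sorted libraries 3 of the 20 fell, with MCM3, GINS2 and CDT1 at adjusted p of 0.0975, 0.0755 and 0.0526. RRM2, a subunit of ribonucleotide reductase, was at 43.9 and 48.6 TPM at 96 h and at 29.8 and 25.1 TPM at day 6 (-0.74 ± 0.14, adjusted p = 0.000528, limma). MCM5, a subunit of the replicative helicase, was at 129 and 131 TPM and then at 95.8 and 86.0 TPM (-0.52 ± 0.10, adjusted p = 0.00137). CDC45, GINS2, CDT1 and MCM3, which load or drive that helicase, fell by 0.62, 0.62, 0.57 and 0.37 on the log2 scale. The RRM2 call held without any one library. Those of the other 5 ended without 1 or more of them, among these day 6 replicate 2 for MCM5 (adjusted p = 0.052), CDT1 (up to 0.188), GINS2 (up to 0.252) and MCM3 (up to 0.424), and day 6 replicate 1 for CDC45 (0.0711). Of 8 tested cell cycle inhibitors and D cyclins none passed. CDKN1C, the cyclin-dependent kinase inhibitor p57, was at 110 and 189 TPM and then at 223 and 279 TPM (0.79, adjusted p = 0.11).

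**Figure D4:**
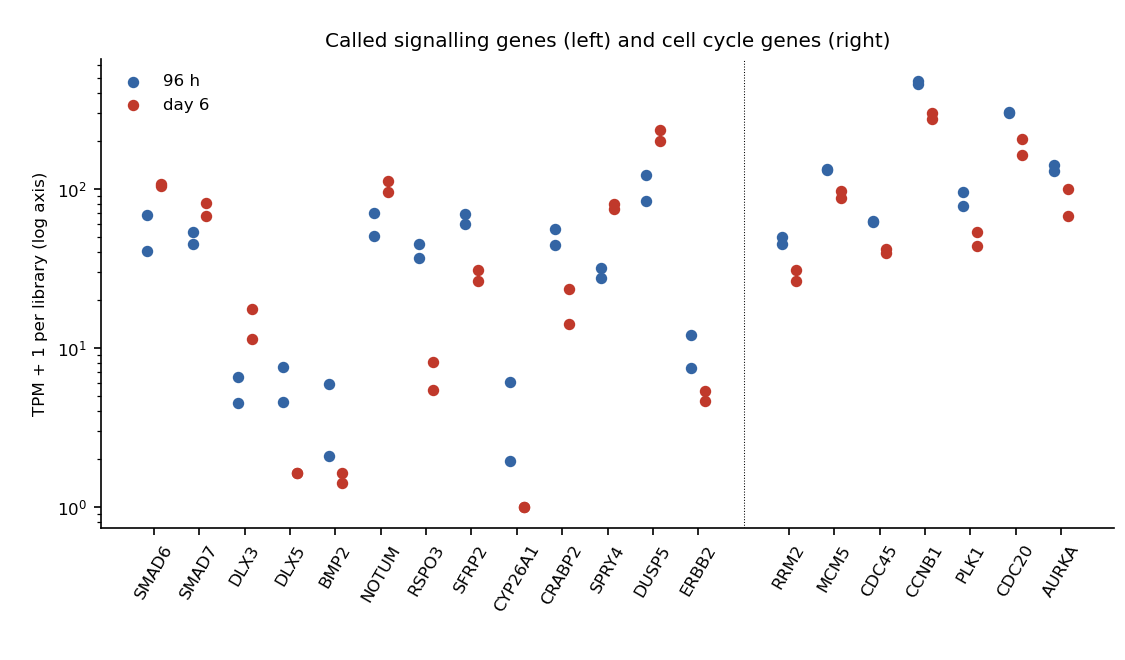
TPM + 1 per library (log axis) for called signalling genes, left of the dotted line, and for called cell cycle genes, right of it, with 96 h in blue and day 6 in red. Each of the 7 cell cycle genes has both red points below both blue points, whereas the signalling genes move in both directions. The genes were chosen by their calls, which all but fixes this: 426 of the 426 fallen genes had both day 6 libraries below both 96 h libraries.

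The metabolic and stress lists were set against all genes tested, of which 3.8% fell and 2.04% rose. Of 18 glycolysis genes 2 fell, ALDOC (-1.25) and PGK1 (-0.36), and 17 of the 18 had a negative log2 fold change with a median of -0.28. In 12 of the 18 both day 6 libraries were below both 96 h libraries, against 27% of all genes tested, so this list lay lower at day 6. Of 14 hypoxia response genes NDRG1, DDIT4 and EPAS1 fell, by 0.65, 0.74 and 1.05 on the log2 scale. Of 15 ER stress and amino acid response genes ATF3 and PHGDH fell (-1.73 and -0.49), and of 12 immediate early and heat shock genes KLF6 fell (-0.65). Each of these 8 calls ended when at least 1 of the 4 libraries was left out, with adjusted p of up to 0.426: DDIT4, EPAS1 and KLF6 whichever was left out, ALDOC, PGK1 and NDRG1 with any but 96 h replicate 1 left out, PHGDH without either replicate 2, and ATF3 without day 6 replicate 1. In the fit of the sorted libraries the 4 lists had 1, 1, 0 and 0 fallen genes. None of 19 cholesterol synthesis genes and none of 11 p53 targets passed. Both day 6 libraries were below both 96 h libraries in 24 of 55 oxidative phosphorylation genes. These 55 genes had a median of -0.10 with 0 up and 3 down, CYC1, ATP5MF and ATP5PD. The 68 cytosolic ribosomal protein genes had a median of 0.06 with 6 up and 2 down. These counts moved with the scaling, to 3 up and 3 down of the former with quantile normalization and to 2 up and 1 down of the latter with median-ratio scaling.

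Among 9 tested enzymes of DNA methylation and 9 of histone methylation no gene rose or fell. HELLS, a chromatin remodeller needed for DNA methylation, was nearest to the threshold (-0.42, adjusted p = 0.0606) and passed with quantile normalization (0.0408) and in the fit of the sorted libraries (0.0195). DNMT1, the maintenance methyltransferase, was at 57.4 and 72.7 TPM at 96 h and at 56.4 and 52.1 TPM at day 6 (-0.25, adjusted p = 0.498, limma). TRIM28, a co-repressor that keeps imprints, was at 1068 and 1138 TPM and then at 1242 and 1225 TPM (0.16, adjusted p = 0.346). Of 10 imprinted genes PEG10, a gene derived from a retrotransposon, fell from 31.8 and 35.5 TPM to 18.99 and 20.1 TPM (-0.75, adjusted p = 0.0251), a call that ended whichever library was left out (adjusted p up to 0.201). HMGA2, a chromatin architectural protein of embryonic cells, fell from 7.56 and 8.71 TPM to 2.31 and 1.49 TPM (-1.67, adjusted p = 0.00478), which ended without 96 h replicate 2 or day 6 replicate 2 (adjusted p up to 0.0884).

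Most matrix, adhesion and epithelial genes did not pass, and those that did went in both directions, although the medians of these lists lay below that of all genes. The median log2 fold change was -0.35 over 31 collagens, -0.31 over 22 cadherins, -0.41 over 13 keratins and -0.30 over 14 S100 genes. Both day 6 libraries were below both 96 h libraries in 16 of the collagens, 9 of the cadherins, 7 of the keratins and 6 of the S100 genes, against the 27% given above. Of 31 tested collagens COL17A1 and COL6A6 rose while COL1A1, COL4A1, COL6A1 and COL26A1 fell. Of all genes tested 2.04% rose and 3.8% fell. COL4A1, of the basement membrane, went from 101 and 157 TPM to 55.7 and 44.8 TPM (-1.31 ± 0.23, adjusted p = 0.000268, limma), and COL17A1, a transmembrane collagen of hemidesmosomes, from 13.7 and 14.4 TPM to 36.9 and 32.8 TPM (1.25 ± 0.26, adjusted p = 0.00225). Both calls held without any one library, but that of COL17A1 ended with a pseudocount of 0.1 (adjusted p = 0.0876). Of 22 cadherins PCDH1 (0.76) and CDH22 (0.94) rose and CDH6 (-1.25) fell, of 13 keratins KRT8 (-0.54) and KRT72 (-1.86) fell, and of 14 S100 genes S100P (-1.74) fell while S100A11 rose from 859 and 850 TPM to 1429 and 1346 TPM (0.70 ± 0.10, adjusted p = 2.1e-05). The call of S100A11 held without any one library. The calls of PCDH1 ended whichever library was left out (adjusted p up to 0.149), of CDH22 and S100P with any but 96 h replicate 2 left out (0.356 and 0.145), of KRT8, COL26A1 and COL1A1 with any but 96 h replicate 1 left out (0.409, 0.309 and 0.232), of KRT72 without 96 h replicate 1 (0.062), of CDH6 without either replicate 1 (0.0696), of COL6A6 without either replicate 2 (0.0751) and of COL6A1 without 96 h replicate 2 (0.075). SNAI1, a driver of epithelial-mesenchymal transition, was the only one of 12 tested genes of that list to pass, at 16.5 and 19.9 TPM and then 30.1 and 32.2 TPM (0.75, adjusted p = 0.0155), and its call ended unless 96 h replicate 2 was the library left out (adjusted p up to 0.131). A list of 22 YAP target genes was added after values had been seen: of 20 tested, ANKRD1, CCN1, CCN2, CCDC80 and AXL fell (-2.07, -1.83, -1.76, -1.80 and -1.25), FOXF2 rose, and 14 did not pass, with a median of -0.08. The calls of CCN1 and CCDC80 ended without day 6 replicate 1 (adjusted p = 0.0826) and without 96 h replicate 2 (0.0537), and in the fit of the sorted libraries 0 of the 20 rose and 3 fell.

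Markers of other cell types were read because a sorted sample can hold cells that the gate did not remove, and in bulk samples fewer cells of a type and less RNA per cell cannot be told apart. Of 11 tested stromal mesoderm markers DCN and COL1A1 fell and none rose, with a median of -0.56. The summed level of the 12 stromal genes in the table was 107 and 143 TPM at 96 h and 105 and 85.9 TPM at day 6, and TWIST1 was at 0 in both day 6 libraries. Of 10 cjESC markers SFRP2 fell, and their sum was 390 and 432 TPM and then 397 and 381 TPM. None of 9 tested endoderm markers passed. Their sum without the germ cell factor SOX17 was 66.6 and 146 TPM and then 37.9 and 49.8 TPM, of which APOA1 made up most, and AFP and CER1 were at 0 in all 4 libraries. The 7 amnion-like markers summed to 93.9 and 161 TPM and then to 114 and 181 TPM, with VTCN1 lower. Of 9 tested endothelial markers EGFL7 fell (-1.49, adjusted p = 0.0981 without 96 h replicate 2) and the sum was 48.2 and 51.6 TPM and then 52.0 and 46.4 TPM. Of 7 tested neural markers EN2 rose and NES (-0.70) fell, with SOX1, ZIC1 and NEUROG2 at 0 in all 4 libraries, and the sum was 100 and 120 TPM and then 80.9 and 77.0 TPM. None of 4 tested blood markers passed, and their sum was 26.7 and 22.5 TPM and then 24.4 and 19.6 TPM. The part of such cells in the fallen genes was not tested.

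For some of the fallen and risen genes the courses before and after are given as examples. The 48 h aggregates were not sorted, so between 48 h and 96 h time cannot be told apart from the sort. From day 6 to day 20 the log2 fold change was 1.69 for LOC100391685 and 0.81 for GC, and neither passed. It was negative for the other fallen DEGs. CD48 was at 405 and 520 TPM in cjESCs, at 356 and 444 TPM in the 48 h aggregates, and listed at 0 in both day 20 libraries. HTRA1 likewise was at 205 and 237 TPM at 48 h and at 0.24 and 1.08 TPM at day 20. In CD48 the day 6 libraries lay between those of 96 h and day 20, while in HTRA1 the libraries of day 6 and day 20 overlapped. TAT had been at 1.31 and 1.11 TPM at 48 h, so that 96 h was its highest point on the route, and it was at 0.24 and 1.08 TPM at day 20. RSPO3 was at 4.14 and 2.46 TPM at 48 h and at 0.42 and 0 TPM at day 20, again with its highest point at 96 h. NANOS3 went from 15.8 and 10.2 TPM at 48 h through its highest level at day 6 to 127 and 169 TPM at day 20. EVX1, at 50.8 and 68.0 TPM in the 48 h aggregates, was lower at 96 h, higher at day 6 and at 3.56 and 9.77 TPM at day 20. CCNB1 was at 262 and 204 TPM at day 20, next to the 298 and 272 TPM of day 6.

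**Figure D5:**
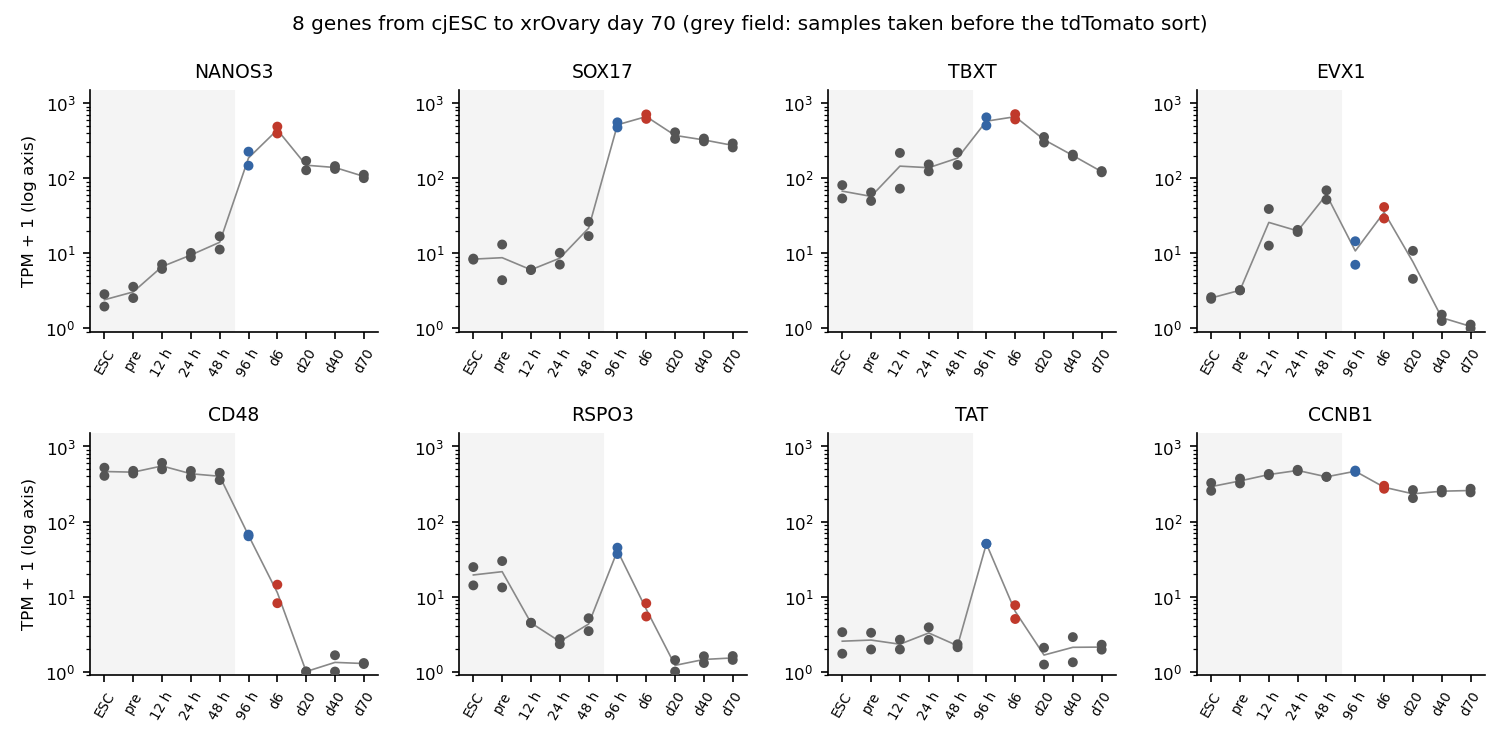
TPM + 1 (log axis) of 8 genes in single libraries from cjESCs (ESC), pre-induced cells (pre) and aggregates in BLSE + IWR1 to xrOvary day 70, with the line through the means of 2 libraries, 96 h in blue and day 6 in red. NANOS3 peaks at day 6, CD48 declines from 48 h to day 20, and RSPO3 and TAT peak at 96 h.

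The series held 3 further tdTomato-sorted conditions at 96 h, which show how far the day 6 cells differ from 96 h cells made in other ways. In 1, BMS493 was added to BLSE + IWR1. In the others, SOX17 was expressed from a transgene in cells kept in DK20FA medium, with BLSE or without BMP4, and the labels call the latter differentiated cells. Both day 6 libraries were above all 8 sorted 96 h libraries in 513 genes (4.58% of those tested) and below all 8 in 754 genes (6.73%). With only the 2 conditions that had IWR1 these were 1358 and 1376 genes. Of the 228 risen genes 103 were above all 8, and of the 426 fallen genes 227 were below all 8. Since the comparison with the BLSE + IWR1 libraries at 96 h chose these genes, the counts only describe them. Of the 18 DEGs 13 lay outside the 8 libraries, all of them fallen. PRR9 and LOC100391685 were far higher with SOX17 and BLSE (301 and 531 TPM, and 419 and 805 TPM) than in any of the 4 libraries compared, and RSPO3 was at 159 and 270 TPM with SOX17 and no BMP4.

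Set against the 96 h cells made with BMS493, day 6 cells had 2 DEGs higher and 30 lower, 0.286% of the genes tested. The day 6 libraries are shared with the main comparison, so the values are given side by side. NANOS3 was at 434 and 349 TPM with BMS493 at 96 h, and day 6 minus BMS493 gave a log2 difference of 0.17 (adjusted p = 0.898, limma). Some other genes that rose from 96 h to day 6 are given as examples. The difference was -0.47 for EN2, 0.07 for NTF3, 0.19 for PARP10, -0.28 for SMAD6 and 0.32 for INSM1. None of these differences passed, which does not show that the levels were equal. In other risen genes both day 6 libraries were above both BMS493 libraries. SUSD2 was at 30.03 and 26.05 TPM with BMS493 and at 50.7 and 46.2 TPM at day 6. MOV10L1 was at 2.48 and 2.54 TPM and then at 5.65 and 6.03 TPM. GDF3 was at 736 and 822 TPM and then at 1058 and 1102 TPM, and EVX1 was higher as well. In HEY1, SMAD7 and DLX3 the libraries overlapped. HAND1 was lower at day 6 than with BMS493, where it was at 212 and 113 TPM (-1.60, adjusted p = 0.00165). CD48, RSPO3 and GC were lower at day 6 against this condition too, with log2 differences of -2.15, -3.79 and -3.67 and adjusted p of 2e-08, 2e-08 and 1.96e-06.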

How the data were processed

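Per the methods of the study and the labels, sorted cells were sequenced as poly(A) RNA, reads were aligned with STAR to a marmoset genome, and the authors computed TPM with RSEM and kept genes common to marmoset and human. The deposited table of TPM values held 14812 genes in 54 libraries of 27 conditions, 2 each, and read counts were not used here, so depth is unknown. Values were taken as log2(TPM + 1), so that fold changes of low genes are understated. Genes reaching 1.5 in at least 1 library were tested with limma 3.58.1 (R 4.3.3), condition means over all libraries, an intensity trend and Benjamini-Hochberg adjustment. DEGs passed a 4-fold change, adjusted p under 0.01 and mean over 1.5. The study's own test needs counts. Genes named were the study's germ cell genes, the 10 largest DEGs per direction, up to 4 list members per direction or of the highest level, and every member of small counts. Members and lists were chosen with earlier results of these data known. Replicate numbers are shared between the groups but nothing says that they pair. The code was tested on simulated data. Alternatives covered the pseudocount, filter, libraries fitted, scaling, trend, replicate block and leaving out libraries.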

Additional observations from a re-analysis of the deposited data

How the results depend on the processing

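Of 104 named genes, 1047 of 1352 gene-by-setting values over 13 alternatives kept direction and call, 295 kept direction but lost the call, 3 gained it and 7 changed sign. The sign changes concerned TFAP2C and HAND1, neither called: 0.014 and 0.031 with median-ratio scaling, 0.013 for HAND1 with quantile normalization, and ranges of -0.10 to 0.052 and -0.40 to 0.38 without single libraries. In limma on the libraries compared alone, 0 DEGs and 0 genes at an adjusted p under 0.05 remained in either direction (1946 at an unadjusted p under 0.05), with 4 DEGs left between 48 h and 96 h, 0 between day 6 and day 20 and 0 against BMS493; 4 libraries leave 2 residual degrees of freedom. In the fit of the sorted libraries the DEGs were 0 higher, 9 lower and 9 against BMS493. A pseudocount of 0.1 gave 2 DEGs higher, neither of them EN2. It ended the calls of 14 of the 104 named genes, COL17A1, CRABP2, DLX3 and MOV10L1 among them. Median-ratio scaling and quantile normalization gave 10 and 11 DEGs lower, the latter with 346 genes higher. Without single libraries, DEGs higher numbered 1 to 4 and lower 10 to 26, genes higher 73 to 254 and lower 155 to 465. The lowest counts of called genes higher came without day 6 replicate 1, and 26 DEGs lower without 96 h replicate 1; a lone library is then taken to vary like the rest. The fit without day 20 replicate 2, the library with the fewest genes above 0, was added after the data were seen and gave 254 higher and 465 lower. With only the IWR1 conditions at 96 h, 1358 and 1376 genes lay above and below their range. With the replicate block 1 and 17 DEGs and 251 and 474 genes were called, and none of the 104 named genes changed its call, while of 848 tested list members 9 gained one and 0 lost it, HELLS (adjusted p = 0.0439) among them, and the mitotic genes that fell became 12; the 2 replicate pairs did not deviate together (r = -0.0025), and the numbers were not taken as pairs. Depth behind these TPM is unknown, so low genes such as UBL7 and CYP26A1 have no counting limit. The causes of these differences were not tested.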
